A study of Saccharomyces cerevisiae with 100 samples.

Results

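Of the 95 sequenced suppressors of a rad53Δ sml1Δ yeast strain, 4 carried many single nucleotide variants (SNVs) at intermediate allele frequency. Outside chromosome XII these lay on 6 to 12 chromosomes per strain. These were SUP23, SUP47, SUP89 and SUP124. The allele frequency of an SNV is the share of sequencing reads over a position that carry the variant base. A suppressor was chosen when at least 8 of its SNVs outside chromosome XII lay from 0.40 to below 0.7, and the other 91 suppressors served for comparison. The 95 suppressors belong to a series of 100 sequenced strains.

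The study selected Saccharomyces cerevisiae colonies able to grow on methyl methanesulfonate (MMS) and sequenced whole genomes to list what each had gained. All 95 suppressors descend from the haploid W303 derivative YJT75, of genotype MATa sml1Δ::URA3 rad53Δ::LEU2, and the sequenced YJT75 strain was the control. The control thus carried both deletions too. Each strain was 1 isolate with 1 library, so no strain had a replicate and no error can be attached to a single allele frequency.

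Rad53 is the checkpoint kinase that protects replication forks and restrains the cell cycle when DNA is damaged. Sml1 inhibits ribonucleotide reductase, and its loss keeps cells alive without Rad53. MMS alkylates DNA bases and stalls replication forks. In the DNA of a haploid clone, a variant that every cell carries in its only copy is read in nearly all reads over its position, whereas a variant present in some cells or in some copies is read in a fraction of them.

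The table of allele frequencies listed an SNV when its frequency was 0.40 or more in a suppressor and below 0.1 in the control. The number of reads behind each value was not part of the table, so the depth of single SNVs is unknown and no counting interval could be set on a frequency. A value below 0.40 is visible in a strain only where another suppressor carried that SNV at 0.40 or more. A group of SNVs below the limit and private to 1 strain would therefore not be seen. SNVs are written below with the reference base, the position from 1 at the chromosome start in sacCer2, and the variant base.

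The 4 suppressors held 107 SNVs outside chromosome XII, of which 83 (77.6%) lay below 0.7. Over all 95 suppressors 130 of 2714 SNVs (4.79%) did so. These are the values by which the strains were chosen, and they are given as a description. The count was 22 of 34 SNVs in SUP23, 12 of 14 in SUP47, 8 of 15 in SUP89 and 41 of 44 in SUP124. Among the other 91 suppressors 47 of 2607 SNVs (1.80%) lay below 0.7. Of these 91 strains, 62 had none, 19 had 1 and 10 had from 2 to 5.

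The limit of 8 passed through a sparse range of strains. Just inside it, the 8 intermediate SNVs of SUP89 ran from 0.407 to 0.695. Just outside it, SUP19 had 5 of 24 SNVs at 0.479 to 0.599 and SUP125 had 4 of 19 at 0.588 to 0.690. SUP125 had 8 more at 0.782 to 0.846. A further strain, SUP75, had no SNV below 0.7 but had 24 of 40 at 0.715 to 0.839. SUP75 would enter with an upper limit of 0.8, and SUP89 would leave with a minimum of 10 SNVs.

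**Figure D1:**
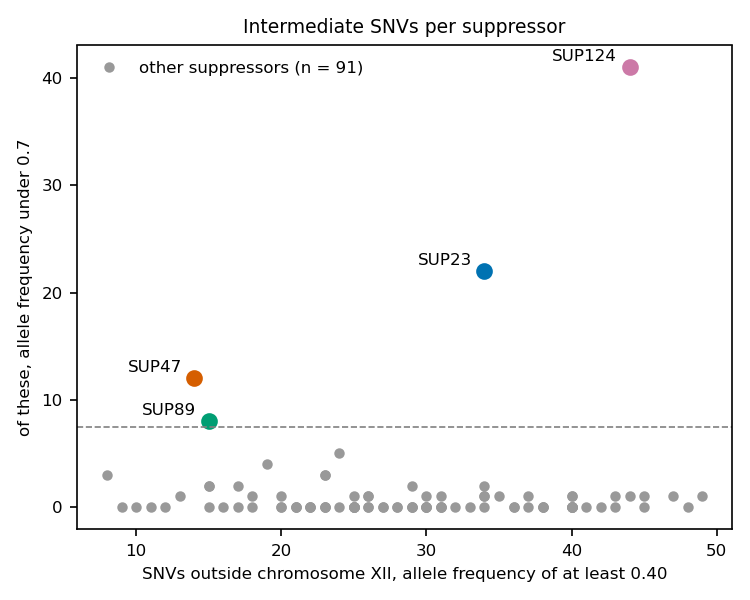
Number of SNVs outside chromosome XII with an allele frequency from 0.40 to below 0.7 (vertical axis) against the number of all SNVs at 0.40 or more outside chromosome XII (horizontal axis), 1 point per suppressor (95 points). The 4 chosen strains lie at 8, 12, 22 and 41 intermediate SNVs, and the other 91 lie at 0 to 5.

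The total number of SNVs did not set the 4 strains apart on the high side. SUP47 with 14 and SUP89 with 15 lay in the lower part of the range of the other 91 strains, which had 8 to 49 SNVs outside chromosome XII with a median of 28. SUP23 with 34 and SUP124 with 44 lay above that median but inside the range.

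The frequencies clustered around 1 main peak in each strain rather than filling the interval evenly. In SUP47 the 12 SNVs below 0.9 lay between 0.5625 and 0.6845 with a median of 0.638, and its other 2 SNVs were at 1.0. In SUP89 10 SNVs lay between 0.667 and 0.729 with a median of 0.693, 1 lay at 0.407 and the remaining 4 were at 1.0. The SUP89 peak was the narrowest of the 4, with an SD across SNVs of 0.0196.

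In SUP124 the values formed 2 bands. A main band of 33 SNVs ran from 0.518 to 0.690 with a median of 0.603, and a lower band of 8 SNVs ran from 0.401 to 0.440 with a median of 0.418. No SNV of this strain lay from 0.45 to 0.50, and 3 were at 1.0. In SUP23 17 SNVs between 0.5 and 0.9 had a median of 0.605 and 5 lay from 0.402 to 0.436, with 11 SNVs above 0.9. Its 1 remaining SNV, at 0.483, lay between the 2 groups, so they were less clearly apart than in SUP124. Since the listing started at 0.40, the lower edge of both lower bands is set by that limit.

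The distance of each main peak from 1 can be set beside the lower bands. It was 0.395 in SUP23, 0.397 in SUP124, 0.362 in SUP47 and 0.307 in SUP89, in each case below the listing limit of 0.40. The lower-band medians were 0.436 in SUP23 and 0.418 in SUP124. Private SNVs were listed only from 0.40, so these medians had to lie above the distances and cannot show a match. SUP47 had no SNV below 0.45, and SUP89 had the 1 at 0.407. How the lower bands and the main peaks relate was not tested.

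**Figure D2:**
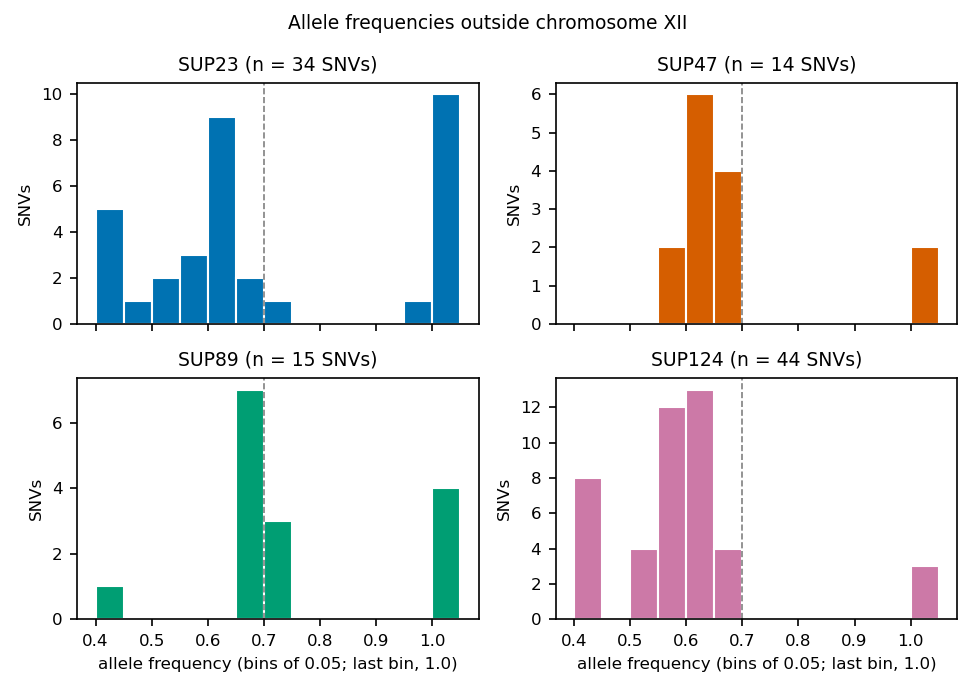
Number of SNVs outside chromosome XII (vertical axis) by allele frequency (horizontal axis) in the 4 strains, 1 panel per strain. Main peaks lie at medians of 0.605 in SUP23, 0.638 in SUP47, 0.693 in SUP89 and 0.603 in SUP124, with a further band below 0.45 in SUP23 and SUP124. In SUP23 1 SNV at 0.483 lies between band and peak.

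Intermediate values were spread over the chromosomes. Outside chromosome XII, all 12 chromosomes with an SNV in SUP124 carried an intermediate one, as did all 11 in SUP23 and all 7 in SUP47. In SUP89 6 of 8 chromosomes did. The median of the values between 0.5 and 0.9 on a chromosome ran in SUP124 from 0.552 on chromosome XVI to 0.632 on chromosome I, and in SUP89 from 0.667 on chromosome IV to 0.728 on chromosome V. It ran in SUP47 from 0.5625 on chromosome VII to 0.681 on chromosome XIII, and in SUP23 from 0.508 on chromosome II to 0.685 on chromosome IV. Several of these medians rest on 1 SNV.

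Values near 1 and intermediate values also occurred side by side on the same chromosome. This was so on 6 chromosomes of SUP23, 2 of SUP47, 3 of SUP89 and 3 of SUP124. In SUP47, SUP89 and SUP124 every value near 1 on these chromosomes belonged to an SNV shared with other suppressors. Only SUP23 also had private SNVs near 1 there. SNVs at different positions of a strain within 1000 bases of each other gave nearly the same frequency. The C310219T and C310220A changes 1 base apart in NAN1 of SUP47 were at 0.614 and 0.610. In SUP23 A359962G and A360397T, 435 bases apart on chromosome XV, were at 0.660 and 0.663. In SUP124 2 pairs of SNVs 5 bases apart were at 0.560 and 0.585 (chromosome XIII) and at 0.526 and 0.574 (YOL013W-A). Within these 4 pairs the readings differed by 0.0475 or less. Positions 1 or 5 bases apart are covered largely by the same reads, so close readings there carry little information. Pairs farther apart were not compared.

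**Figure D3:**
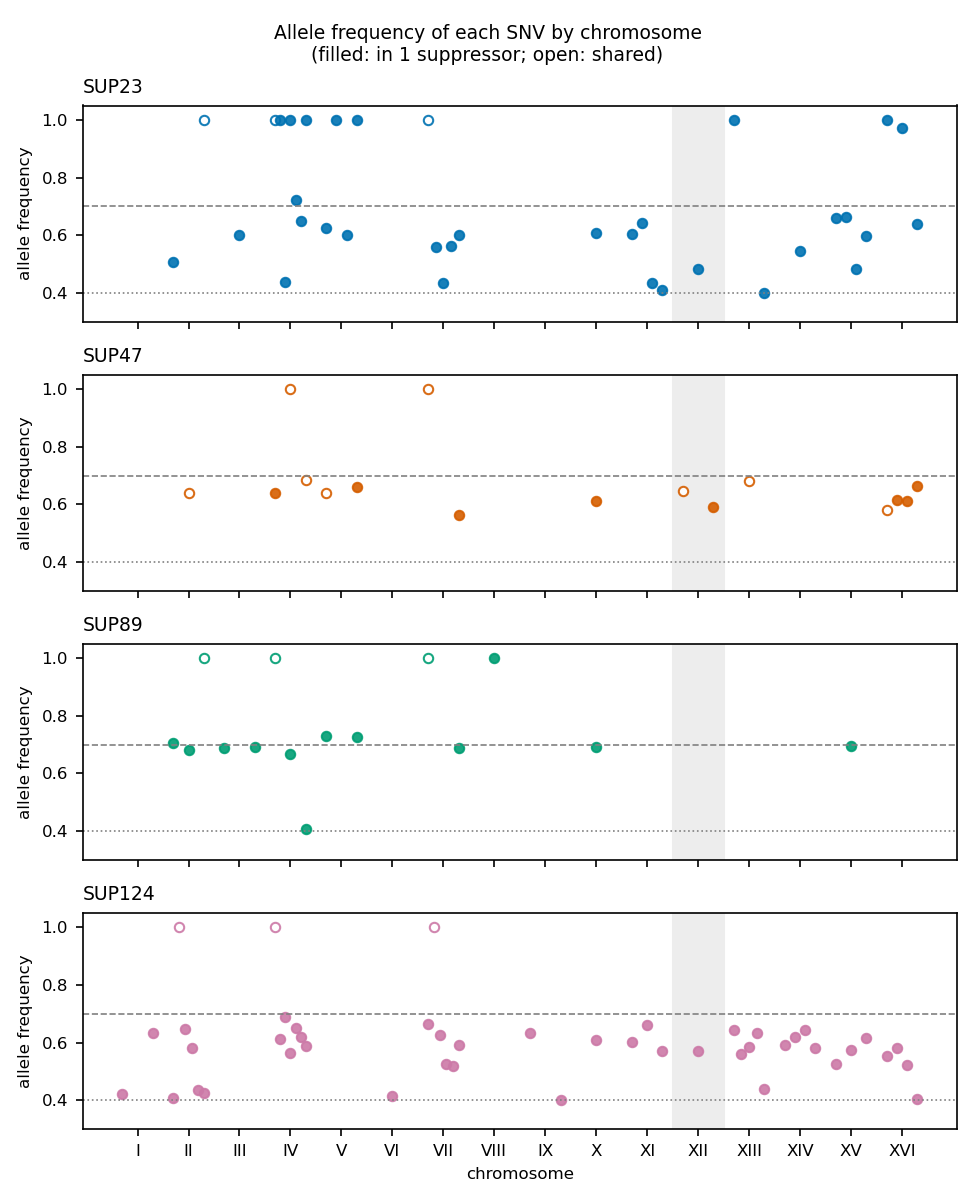
Allele frequency (vertical axis) of every SNV at 0.40 or more in the 4 strains, grouped by chromosome and ordered by position within it (horizontal axis, not to scale). Filled points were found in 1 suppressor and open points in several, the dashed line is at 0.7, the dotted line at 0.40 and the grey band is chromosome XII. The intermediate SNVs occur on several chromosomes of each strain, and open points at 1.0 recur in all 4 strains.

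Chromosome XII, which carries the ribosomal DNA and was left out of the rule, held 4 SNVs at 0.40 or more in these strains, and none exceeded 0.7. SUP47 had C909174A in CST9 at 0.645 and G1020886T in SIR3 at 0.590. SUP23 had T16290G outside genes at 0.484 and SUP124 had a synonymous T638329G in YEF3 at 0.571. SUP89 had none. The other 91 strains had 0 to 12 SNVs on this chromosome with a median of 4, and 361 of these 405 SNVs (89.1%) also lay below 0.7. Intermediate values on this chromosome were therefore not confined to the 4 strains.

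SNVs shared with other suppressors differed in frequency from private ones in 3 of the 4 strains. SUP23, SUP89 and SUP124 each carried the same 3 shared SNVs, and all 9 readings were 1.0. These were A235130G outside genes on chromosome II, C29373A in GUD1, a guanine deaminase gene, and A104034G in CHC1, the clathrin heavy chain gene. They were carried by 49 of the 95 suppressors. The private SNVs of SUP124 were in contrast all intermediate, 41 of 41 from 0.401 to 0.690.

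Most of the private SNVs near 1 were in SUP23. This strain had 31 private SNVs, 22 of them below 0.7 and 8 at 0.9 or above. Those 8 included A179409G in DDC1 at 1.0 and changes in AVT6, BCK2, AFR1, PRP28 and MSY1. SUP89 had 12 private SNVs, of which 8 were below 0.7 and 1, C397248A outside genes on chromosome VIII, was at 1.0. In the other 91 strains 2251 of 2368 private SNVs (95.1%) were at 0.9 or above. The share varied among these strains, with 4 of 16 in SUP125 and 12 of 36 in SUP75.

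A single position in SUP23 read as 2 different variants. In the asparagine tRNA gene tN(GUU)G on chromosome VII, G731210A was at 0.436 and G731210T at 0.564, which sum to 1.0. Both values were counted in the groups described above, the first among the 5 of the lower band and the second among the 17 between 0.5 and 0.9. Their place in these groups is therefore no separate observation. The paper states that multiallelic loci were discarded, but this position remained listed.

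SUP47 shared 5 of its 12 intermediate SNVs outside chromosome XII with another suppressor, SUP39. Of its 16 SNVs at 0.40 or more over all chromosomes, 8 were also carried by SUP39. Both strains had G746332A on chromosome IV and C78715A in SDT1, carried by 8 and 9 suppressors, at 0.995 to 1.0. Outside chromosome XII, 5 more SNVs were at 0.9935 to 1.0 in SUP39 and at an intermediate frequency in SUP47. These were the synonymous A446463C in EXO84 (0.638 in SUP47) and A20698G in DSF1 (0.639), and the missense T890318G in UPC2 (0.6845), C824281G in PRM15 (0.681) and A221317G in NIP100 (0.579).

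Outside chromosome XII, the SNVs that SUP39 held at lower frequency were lower again in SUP47. YBL100W-B read 0.4535 in SUP39 and 0.356 in SUP47, and a position outside genes on chromosome VIII read 0.4545 and 0.270. The ratio of SUP47 to SUP39 over these 7 SNVs, the 5 above included, ran from 0.583 to 0.785 with a median of 0.642. On chromosome XII, BRE2, MEU1, PDC1 and a site outside genes read 0.486 to 0.515 in SUP39 and 0.281 to 0.319 in SUP47, ratios of 0.549 to 0.629. CST9 went the other way, with 0.513 in SUP39 and 0.645 in SUP47. A further 4 SNVs of this chromosome, at 0.467 to 0.495 in SUP39, were listed at 0 in SUP47.

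The overlap was partial in both directions. Outside chromosome XII, 8 SNVs at 0.993 to 1.0 in SUP39, among them changes in YAP6, NUP100, GAT2 and KRE5, were listed at 0 in SUP47. Conversely 7 SNVs of SUP47, in UGA4, SNX4, NAN1 (with 2), ATG11 and outside genes, were at 0.5625 to 0.665 there and in no other suppressor. In all, 14 of the 26 SNVs of SUP39 were read in SUP47 at some frequency and 12 were listed at 0.

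**Figure D4:**
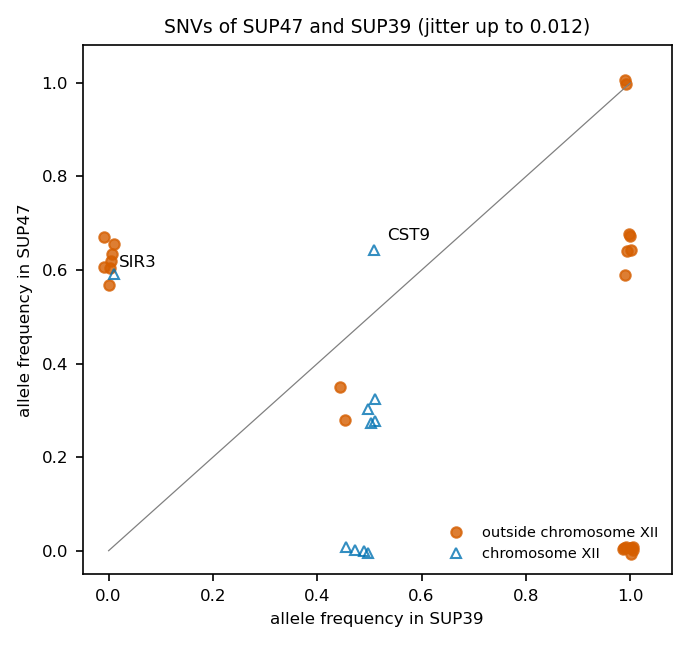
Allele frequency in SUP47 (vertical axis) against that in SUP39 (horizontal axis) for each SNV at 0.40 or more in either strain, with small random offsets so that coinciding points can be seen. SNVs at 1.0 in SUP39 lie at 1.0, near 0.64 or at 0 in SUP47, and the 7 private SNVs of SUP47 lie at 0.5625 to 0.665.

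No such partner was found for the other 3 strains. SNVs called in other suppressors were read at 0.02 or more but below 0.40 at 6 positions in SUP23, 6 in SUP89 and 4 in SUP124, and all of these were at 6 recurrent positions, whose median over all suppressors was 0.0189 to 0.234. Elsewhere the highest reading of another strain's SNV was 0.0138 in SUP23, 0.0163 in SUP89 and 0.0196 in SUP124. In SUP47 it was 0.356. Of the 83 intermediate SNVs, 78 were private and 5 were those shared with SUP39.

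The control was then set beside these SNVs. For 82 of the 83 the control was listed at 0. The exception, the synonymous G358A in YAL069W near the end of chromosome I, was at 0.422 in SUP124 and 0.0957 in the control, and it was 1 of the 6 recurrent positions.

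The effects on genes were next compared with those of the other suppressors. The 107 SNVs comprised 48 missense, 1 nonsense and 18 synonymous changes, 5 in tRNA genes, 1 in the intron of RPL34B and 34 outside genes. The 83 below 0.7 comprised 37 missense, 1 nonsense, 13 synonymous, 5 tRNA, 1 intron and 26 outside genes. Among the SNVs in coding sequence, 74.5% were nonsilent below 0.7 and 68.8% at 0.7 or above. The upper group counts the shared GUD1 and CHC1 SNVs once for each of SUP23, SUP89 and SUP124.

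Per strain, the nonsilent share of coding SNVs was 16 of 20 in SUP23 (80%, exact 95% binomial interval 56.3 to 94.3), 7 of 11 in SUP47 (63.6%, 30.8 to 89.1), 6 of 7 in SUP89 (85.7%, 42.1 to 99.6) and 20 of 29 in SUP124 (69%, 49.2 to 84.7). These intervals cover counting error only. The mean was 74.6% ± 10.1 (SD, n = 4) against 72.2% ± 11.2 (SD, n = 91) in the other strains. The difference of 2.35 percentage points, with a 95% interval of −9.04 to 13.7, did not pass a two-sided exact permutation test over strains (p = 0.674, Benjamini-Hochberg adjusted p = 0.693 over the 4 shares tested).

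The share of SNVs that fell in coding sequence was 20 of 34 in SUP23, 11 of 14 in SUP47, 7 of 15 in SUP89 and 29 of 44 in SUP124. Its mean was 62.5% ± 13.3 (SD, n = 4) against 68.9% ± 9.40 (SD, n = 91), a difference of −6.44 points with a 95% interval of −16.3 to 3.30 (exact permutation p = 0.185, adjusted p = 0.600). The size of this difference moved with single strains. Without SUP47 it was −11.8 points (exact permutation adjusted p = 0.151), and without SUP89 it was −1.16 points (exact permutation adjusted p = 0.83). Among strains with the GUD1 SNV alone, 3 against 46, it was −13.4 points (exact permutation adjusted p = 0.0551).

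SNVs in tRNA genes numbered 5, all of them intermediate. SUP23 had 4 at 3 positions, with tK(CUU)E2 at 0.602 and tL(UAA)K at 0.605 beside the pair in tN(GUU)G, and SUP89 had tK(CUU)D1 at 0.667. This was 5 of 107 SNVs (4.67%) against 76 of 2607 (2.92%) in the other suppressors, of which 55 of 91 had at least 1 and 4 had 3, as many as SUP23 by position. The share was not tested.

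The base changes were then set beside those of the other strains, each counted with its complement. T-to-C changes made up 29.9% against 28.4%, C-to-A 18.7% against 19.8%, C-to-G 15.9% against 14.7% and C-to-T 15.9% against 17.4%. T-to-A made up 14% against 15.4% and T-to-G 5.61% against 4.3%. Single strains with few SNVs departed further, with T-to-C at 7 of 15 and no C-to-T in SUP89, and T-to-G at 3 of 14 and no T-to-A in SUP47. These departures were not tested.

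Tests over strains found no difference in the spectrum past the threshold. The transition share was 17 of 34 SNVs in SUP23, 8 of 14 in SUP47, 7 of 15 in SUP89 and 17 of 44 in SUP124. Its mean was 48.1% ± 7.68 (SD, n = 4) against 46.3% ± 9.02 (SD, n = 91), a difference of 1.82 points (95% interval −7.29 to 10.9, exact permutation p = 0.693, adjusted p = 0.693). The share at a C:G base pair, the pair that holds the guanine that MMS alkylates most, was 46.4% ± 13.9 (SD, n = 4) against 51.6% ± 9.56 (SD, n = 91), a difference of −5.16 points (95% interval −15.1 to 4.74, exact permutation p = 0.30, adjusted p = 0.600). The directions of the nonsilent, transition and C:G differences turned when single strains were left out. Within the 4 strains the share at C:G pairs was 50.6% below 0.7 and 50.0% at or above it. The SNVs shared by SUP23, SUP89 and SUP124 were again counted once per strain.

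The study filtered nonsynonymous SNVs at a frequency of 0.7 and also considered a less strict limit of 0.40. A limit of 0.7 on the allele frequency would remove most nonsilent changes of these strains. Over all chromosomes they had 51 nonsilent SNVs at 0.40 or more and 11 at 0.7 or more, so 40 (78.4%) were dropped. The count went from 16 to 6 in SUP23, from 9 to 1 in SUP47, from 6 to 3 in SUP89 and from 20 to 1 in SUP124. Outside chromosome XII, 38 of 49 (77.6%) were dropped, against 25 of 1307 (1.91%), in 19 strains, among the other 91. On chromosome XII the other strains lost a further 201. The removal follows from the frequencies by which the strains were chosen and is not a separate finding.

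What stayed above the limit was in part common to many strains. The 1 remaining change in SUP124 was the shared GUD1 variant and that in SUP47 the shared SDT1 variant, so neither kept a private nonsilent SNV. SUP89 kept 2 private ones, in AFG3, a mitochondrial protease gene, at 0.729 and in RPN3, a proteasome gene, at 0.728. SUP23 kept 5, in YDR278C at 0.721, MSY1 at 0.971, and AVT6, BCK2 and DDC1 at 1.0. The values of YDR278C, AFG3 and RPN3 belong to the main peaks of their strains, which the limit of 0.7 cuts.

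**Figure D5:**
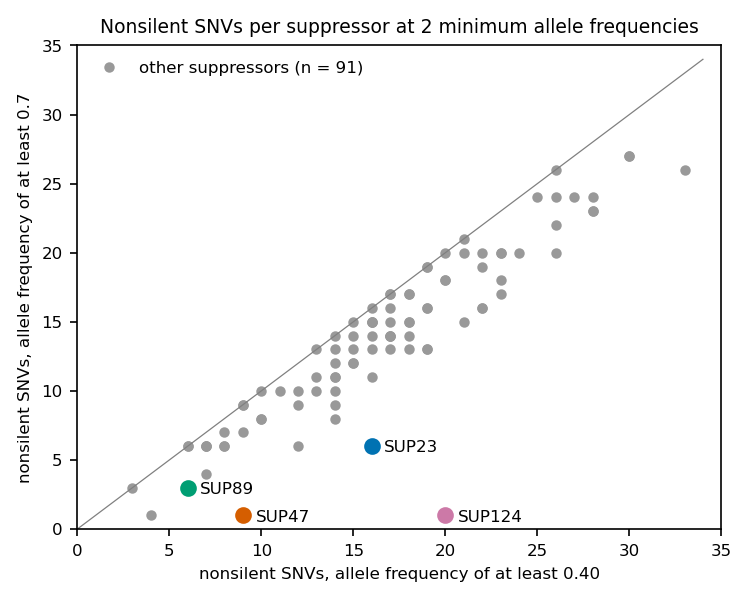
Number of nonsilent SNVs per strain at an allele frequency of 0.7 or more (vertical axis) against the number at 0.40 or more (horizontal axis), over all chromosomes, 1 point per suppressor with the other 91 in grey and the diagonal as no loss. Chromosome XII accounts for 201 of the 226 SNVs that the other strains lose. The 4 strains lie below the diagonal, with SUP124 at 20 and 1, SUP23 at 16 and 6, SUP47 at 9 and 1 and SUP89 at 6 and 3.

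Outside chromosome XII, the 38 dropped changes were 37 missense and 1 nonsense, in 38 distinct genes. Genes of the DNA damage and replication checkpoint were among them. SUP89 had A19564G in MRC1 on chromosome III at 0.693. Mrc1 travels with the fork and passes the replication stress signal from Mec1 to Rad53. SUP124 had T179795C in DDC1 on chromosome XVI at 0.552. Ddc1 is a subunit of the 9-1-1 clamp that activates Mec1 at damage. DDC1 was also changed in SUP23, by A179409G at 1.0, and neither DDC1 nor MRC1 had a nonsilent SNV in any of the other 91 suppressors. Such absence was common, since only 14 of the 38 genes had a nonsilent SNV there.

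A list of 41 checkpoint and fork genes, 40 of which were found by name, was hit in 3 of the 4 strains at 0.40 and in 1 at 0.7. In the other suppressors it was hit in 11 of 91 (12.1%) at 0.40 and in 10 at 0.7, by changes in DUN1 (3 strains), CTF18, MEC1, TEL1, MCM5, POL1, POL2 and PSY2. This was 1 of 9 lists counted, the strains and lists were chosen with results of these data known, and no test was made.

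The other lists had 1 hit or none in these 4 strains, and with 4 strains such counts are too small to set apart from those of the other 91. The SIR3 change of SUP47 was the only hit in silencing genes, a list changed in 18 of the other 91 strains (19.8%), and it lay below 0.7. It was also the only hit among 14 genes of the histone demethylase Rph1, Rpd3, RNA decay and Sir pathways that the study followed up, changed in 21 of the other 91 (23.1%). SIR3 encodes a subunit of silent chromatin. Listed genes of mRNA decay, hit in 19 of the other 91 (20.9%), and of DNA repair, in 17 (18.7%), had no hit in the 4 strains. Those of dNTP supply (hit in 7), the histone deacetylase Rpd3L and related factors (5) and ploidy, budding and cohesion (4) had no hit either. Neither had the 32 candidate genes that the study first chose to test by deletion, which carried nonsilent SNVs in 39 of the other 91 strains (42.9%). SIR3 is not among those 32, but the study deleted it later and reported that its loss suppressed the MMS sensitivity. Whether the SIR3 change of SUP47 has such an effect was not tested.

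The other dropped changes of SUP23 fell in genes of varied roles. They included G1020385T in RNH202 at 0.649, a subunit of RNase H2, which removes ribonucleotides from DNA. RNH202 was not among the 51 genes of the DNA repair list. T79248C in SWE1 was at 0.609, and Swe1 is the kinase that restrains Cdc28 before mitosis. A692722T in ULS1, a Swi2/Snf2 family gene also changed in SUP6, was at 0.483. The nonsense change was C131652A in KKQ8, a putative kinase gene, at 0.643. The others were in EFG1 (0.600), HXT14 (0.545), YPL088W (0.6385), the retrotransposon frame YBL005W-A (0.508), and in the lower band DGR2 (0.436) and MEH1 (0.410).

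The dropped changes of SUP47 were partly those shared with SUP39. UPC2, a sterol regulatory transcription factor gene, PRM15 and NIP100, which encodes a dynactin subunit, were the shared ones. C310219T in NAN1, a ribosome biogenesis gene also changed in SUP30 and SUP129, T379517C in SNX4 at 0.613 and T663759G in ATG11 at 0.665 were private. Snx4 and Atg11 both act in selective autophagy. SUP89 lost, besides MRC1, A986278G in SOL4 (0.689) and A1214099G in YPR1 (0.407), the only SUP89 SNV outside its peak and below 0.45.

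SUP124 lost 19 changes, the most of the 4 strains. They included T101678A in LTE1 at 0.632, a mitotic exit gene also changed in SUP21, SUP61 and SUP73, and C671987T in PFK2, a phosphofructokinase subunit gene, at 0.632. Transcription genes were TFG1 (0.591), of general factor TFIIF, and TFC1 (0.425), of the RNA polymerase III factor TFIIIC. Mitochondrial genes were RSM28 (0.618), TIM23 (0.581) and SFC1 (0.609). CDC27, which encodes a subunit of the anaphase-promoting complex, carried G68889A at 0.406 in the lower band, together with TFC1 and FET4 (0.440). The remaining 10, in PAL1, IMP21, SCY1, BAP2, SPG3, ALD6, YOL013W-A, MET1, URN1 and DDC1, lay from 0.522 to 0.652.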

How the data were processed

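Genomic DNA of each strain was sequenced once. The authors aligned reads to sacCer2 with Novoalign 2.07.14, handled them with Picard 1.81, obtained base counts with deepSNV 1.2.3, called SNVs jointly over the strains with their own Python scripts and annotated them with snpEff 3.0j. They kept SNVs with at least 20 variant reads, a frequency of 0.40 or more in a suppressor and below 0.1 in the control. The paper states that multiallelic loci were discarded, yet positions in tN(GUU)G and EXO84 were listed with 2 variant bases each. The authors deposited allele frequencies as a score from 0 to 1, in which cells of 10 stand for 1 and were read so. The table held 2904 SNVs. Read depth per SNV was not analysed here.

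SNVs at 0.40 or more were counted per strain, outside chromosome XII unless stated. Nonsilent means missense, nonsense or another change of the protein. Gene IDs were matched to RefSeq names (1506 of 1632). Shares of the 4 and the other 91 strains were compared by a two-sided exact permutation test over all 3183545 splits, with a 95% interval from inverting it and Benjamini-Hochberg adjustment over 4 shares. The test was checked on simulated data. Named genes were all those with a nonsilent SNV below 0.7 in the 4 strains, those with a nonsense SNV and listed genes with a nonsilent one. Other genes were named after their values were seen. Members and gene lists were chosen with earlier results of these data known. Alternatives moved the frequency limits, left out strains or kinds of SNVs, or included chromosome XII. Computations ran in Python 3.11.15 with pandas 2.3.3, numpy 2.4.6 and scipy 1.17.1, and plots in matplotlib 3.10.9.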

Additional observations from a re-analysis of the deposited data

How the results depend on the processing

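Over 48 recomputed differences in shares, none passed an adjusted p of 0.05 by the exact permutation test. The lowest adjusted p was 0.0551, and 2 had an unadjusted p below 0.05, both for the coding share. The transition difference (1.82 points) turned to −1.70 with a minimum frequency of 0.5, −0.170 with chromosome XII included, −0.0437 with SNVs pooled over strains and −3.19 among strains with the GUD1 SNV. The C:G difference (−5.16) turned to 3.54 with a minimum of 0.7. Leaving out each of the 4 strains in turn gave −1.19 to 4.97 for transitions, −9.38 to 1.43 for C:G pairs, −1.36 to 6.0 for nonsilent changes and −11.8 to −1.16 for coding sequence. The cause was not tested.

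The 83 intermediate SNVs and the 38 dropped nonsilent ones became 38 and 19 with an upper limit of 0.6, by construction. Leaving out a strain gave 42 to 75 and 19 to 35, the lowest of each without SUP124. The other alternatives gave 68 to 87 and 31 to 41, among them the removal of the recurrent positions (82 and 38), which was chosen after seeing the data. A minimum of 6 intermediate SNVs kept 4 strains, a minimum of 10 kept 3, and an upper limit of 0.8 gave 5. No paired analysis was possible because each strain was a separate isolate with 1 library, and nothing linked a strain of one group to one of the other. With depth unknown and 1 library per strain, frequencies that differ by a few hundredths cannot be ranked.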
